A study of Mus musculus with 15 samples.

Results

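The 40 genes described here encode the machinery of DNA replication and cell division. They were taken from the count table by symbol, 24 as mitotic genes and 16 as S-phase genes, out of 55487 genes. Each of the 40 symbols had a row. A dividing keratinocyte first copies its DNA, for which the MCM helicase opens the double strand and ribonucleotide reductase supplies nucleotides. It then condenses and separates its chromosomes with cyclin-dependent kinase, the spindle and the anaphase-promoting complex. In skin such cells lie in the basal layer of the epidermis, in the hair matrix and in sebaceous glands, and the mRNA of mitotic genes rises mainly in G2 and M phase.

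The libraries came from skin of 3-week-old mice on a C57BL/6 background. The 5 WT libraries were from littermates that carried the loxP-flanked *Otulin* alleles (*Otulin* fl/fl) without Cre. The other 10 came from OTULIN-KO animals, *Otulin* fl/fl mice with *K14-Cre*, in which Cre is driven by the keratin 14 promoter and deletes *Otulin* in keratinocytes but not in the other cells of the skin. Of these, 5 libraries were of non-lesional and 5 of lesional skin, and no treatment was given. QuantSeq reads the 3′ end of each mRNA, so that levels in CPM, counts scaled to library size, need no correction for transcript length. The library sizes were normalized by the TMM method of edgeR. It was not stated whether lesional and non-lesional pieces came from the same mice, so all groups were compared as unpaired first, and the p-values measure the spread between these libraries. The library numbers run through the groups in turn, so that each run of 3 consecutive numbers holds 1 WT, 1 lesional and 1 non-lesional library. The labels do not say what such a run shares. A fit with the run as a block, chosen after seeing the data, is given beside each comparison.

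Library totals ran from 1962604 to 2567138 counts. *Otulin* lay at 12.2 to 28.3 CPM in WT, 21.3 to 30.7 CPM in non-lesional and 19.0 to 27.2 CPM in lesional libraries, so its counts in whole skin did not separate the genotypes. The 8 basal keratinocyte markers were all detected and summed to 6605 to 8469 CPM in 14 libraries and to 11954 CPM in lesional replicate 11. Lesional replicates 2 and 11 stood apart from the other lesional libraries: the 6 stress keratinocyte markers summed to 10319 and 28867 CPM, against 243 to 423 CPM in the other 3. The 14 leukocyte markers, of which *Cd79a* and *Csf3r* were at 0 in every library, summed to 3362 and 5515 CPM there and to 193 to 481 CPM in the remaining 13 libraries. In WT replicate 1 the 19 hair matrix and shaft markers found in the table summed to 1462 CPM, against 70.0 to 199 CPM elsewhere. The 8 skeletal muscle markers summed to 3158 CPM in lesional replicate 11 and to 13407 to 30939 CPM in the others. The fibroblast markers summed to 16358 CPM in lesional replicate 11 and to 26044 to 67839 CPM in the others. In such bulk samples, fewer cells of a type and less RNA per cell cannot be told apart. The part of these markers in the results that follow was not tested.

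The sequences before the starts of abundant members are shown here because mitotic and S-phase genes are described as 2 subgroups. CHR (TTTGAA) and the CCAAT box (CCAAT) are elements known from promoters of G2 and M phase genes, and E2F sites (here TTTGGCGC, TTTCGCGC or TTCCCGCC) from those of S-phase genes. In the RefSeq promoters of GRCm38.p6, which run from 250 bases before to 50 bases after a start, 20 mitotic and 13 S-phase genes had an entry. On either strand, CHR was in 15 of the 20 mitotic genes (75%) and in 1 of the 13 S-phase genes (7.69%), against 17.9% of all 32851 promoters. The CCAAT box was in 90% of the mitotic and 69.2% of the S-phase genes, against 37.4% of all promoters. An E2F sequence was in 1 mitotic gene, *Cdk1*, and in 7 S-phase genes (53.8%), against 2.96% of all promoters. The E2F letters TTTGGCGC and TTTCGCGC can overlap each other on opposite strands, as they do in *Mcm5*. *Ccna2*, *Aurkb*, *Tpx2*, *Kif20a*, *Mcm4*, *Ccne2* and *Gins2* had no entry. The 120-base stretches below lie before the start and are written 5′ to 3′ along the gene, with CHR, CCAAT and E2F matches of either strand in capitals. A match is a description of letters, and some of the matches counted above lie outside these stretches. *Cdc20* and *Mcm5* were added for their values in the comparisons below. *Birc5* and *Tk1*, which are also among the 5 most abundant members of their subgroups, had no CHR, CCAAT or E2F match in their windows and are not printed.
Top2a, chr11:99024259-99024378, minus strand: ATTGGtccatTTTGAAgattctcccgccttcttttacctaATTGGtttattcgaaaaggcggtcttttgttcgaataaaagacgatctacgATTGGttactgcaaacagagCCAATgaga
Cenpf, chr1:189688099-189688218, minus strand: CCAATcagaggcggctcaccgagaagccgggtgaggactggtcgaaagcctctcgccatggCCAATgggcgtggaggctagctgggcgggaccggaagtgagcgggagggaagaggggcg
Mki67, chr7:135716448-135716567, minus strand: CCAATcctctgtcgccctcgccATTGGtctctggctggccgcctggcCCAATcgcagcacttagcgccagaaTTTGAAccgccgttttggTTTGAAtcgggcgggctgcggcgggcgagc
Ube2c, chr2:164769743-164769862, plus strand: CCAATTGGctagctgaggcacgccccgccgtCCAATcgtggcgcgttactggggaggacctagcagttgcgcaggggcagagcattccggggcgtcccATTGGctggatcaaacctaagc
Cdc20, chr4:118437344-118437463, minus strand: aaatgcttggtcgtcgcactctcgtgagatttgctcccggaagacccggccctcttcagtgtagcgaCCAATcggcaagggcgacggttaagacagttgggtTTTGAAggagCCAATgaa
Rrm1, chr7:102441575-102441694, plus strand: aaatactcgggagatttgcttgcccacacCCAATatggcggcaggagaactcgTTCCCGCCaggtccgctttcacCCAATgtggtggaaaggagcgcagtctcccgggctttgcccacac
Mcm7, chr5:138171884-138172003, minus strand: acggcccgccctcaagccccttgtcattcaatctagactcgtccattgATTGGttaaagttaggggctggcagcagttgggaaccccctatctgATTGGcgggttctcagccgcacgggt
Mcm3, chr1:20820313-20820432, minus strand: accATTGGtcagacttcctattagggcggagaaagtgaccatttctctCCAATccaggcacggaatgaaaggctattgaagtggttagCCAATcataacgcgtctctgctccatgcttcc
Mcm5, chr8:75109356-75109475, plus strand: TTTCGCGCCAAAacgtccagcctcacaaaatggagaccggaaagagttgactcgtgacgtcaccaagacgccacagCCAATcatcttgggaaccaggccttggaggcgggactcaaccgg

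Levels differed widely among the members. Without *Ube2c*, the mean over all libraries ran from 4.17 CPM for *Ccnb1*, which encodes cyclin B1, to 160 CPM for *Top2a*, the topoisomerase that untangles sister chromatids, with a median of 16.9 CPM over 23 mitotic genes. The S-phase genes ran from 3.54 CPM for *Ccne1*, which encodes cyclin E1, to 52.8 CPM for *Rrm1*, the large subunit of ribonucleotide reductase, with a median of 23.2 CPM. These values rest on 1 to 531 counts per gene and library. The counts of *Ccnb1* were 4 to 16 per library. Its transcript end is near-identical to that of 5 other genes in the annotation, each with 0 counts, so that its level is uncertain.

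*Ube2c*, the ubiquitin-conjugating enzyme of the anaphase-promoting complex, stood far above every other member with a mean of 2473 CPM. It lies on the plus strand of chromosome 2 (GRCm38, chr2:164769898-164778822), where 592 of its exon bases are shared with *Tnnc2* (chr2:164777161-164779967), a troponin of fast skeletal muscle on the minus strand. *Ube2c* had 85248 counts over all libraries and *Tnnc2* had 87085, and their ratio was between 0.962 and 1.004 in every library. The counting assigned a read to every gene whose exons it overlapped, and no strand option is listed for it, so that reads of the 2 genes cannot be told apart. *Ube2c* was lowest in lesional replicate 11, at 421 CPM, where *Tnnc2* was at 419 CPM and *Top2a* was at its highest. Elsewhere it lay between 1472 and 4408 CPM. For this reason *Ube2c* is left out of the sums below.

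**Figure D1:**
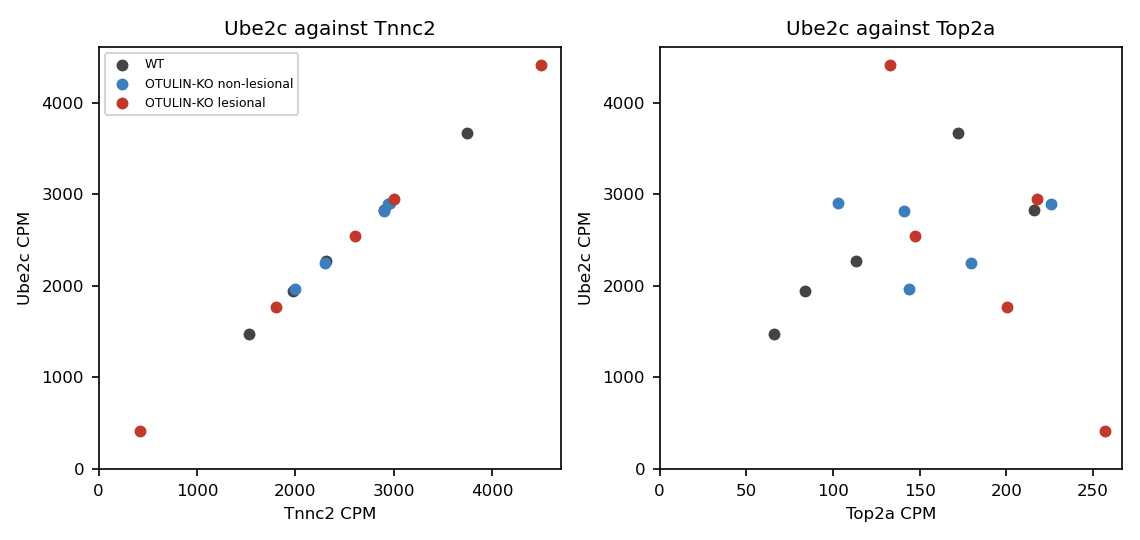
CPM of *Ube2c* plotted against CPM of *Tnnc2* (left) and of *Top2a* (right), 1 point per library, coloured by group, with linear axes from 0. Against *Tnnc2* the points lie on a line, from lesional replicate 11 at 421 CPM of *Ube2c* to lesional replicate 14 at 4408 CPM, and against *Top2a* they do not.

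In all, 10 members share exon bases with a protein-coding gene on the opposite strand, 6 of them mitotic and 4 S-phase. *Gins2*, a subunit of the GINS complex of the replication fork, shares 2758 bases with *Gse1*, and the ratio of their counts was 0.90 to 1.05 in every library. *Kif20a*, a kinesin of cytokinesis, shares 1271 bases with *Cdc23*, with ratios of 0.757 to 0.903. *Ccna2* shares 510 bases with *Exosc9*, *Prc1* 911 bases with *Rccd1*, and *Ccne2* 609 bases with *Ints8*. *Mcm7* shares 321 bases with *Ap4m1* and 64 with *Cops6*. *Nusap1* shares 172 bases with *Oip5*, *Tk1* 83 bases with *Afmid*, and *Cdc20* 53 bases with *Elovl1*. Reads of both partners may enter the counts of these genes. *Cenpf*, *Mcm5* and some other members end in stretches that also occur in other transcripts (at least 95% identity over at least 100 of the last 400 bases), and their levels are likewise uncertain.

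The summed levels of the members varied widely between the libraries of a group. Summed over 23 mitotic genes, the WT libraries had 306, 879, 491, 666 and 457 CPM in replicates 1, 4, 7, 10 and 13. Non-lesional replicates 3, 6, 9, 12 and 15 had 589, 891, 605, 770 and 527 CPM. Lesional replicates 2, 5, 8, 11 and 14 had 841, 917, 589, 1108 and 523 CPM. The 3 groups overlapped, and the highest WT library exceeded the lowest 2.88-fold. The group means were 560 ± 220 CPM in WT, 676 ± 150 CPM in non-lesional and 796 ± 241 CPM in lesional libraries (SD, n = 5 each). Within the runs of consecutive library numbers, the mitotic sum was above that of WT in 5 of 5 runs for both non-lesional and lesional skin, and the lesional sum was above the non-lesional one in 3 of 5. Such run counts, here and below, are description: the runs were chosen after seeing the data and no share of all genes was counted.

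The 16 S-phase genes summed to 233, 446, 399, 451 and 272 CPM in the WT replicates in the same order. In the non-lesional replicates they summed to 309, 419, 391, 478 and 296 CPM, and in the lesional replicates to 393, 393, 446, 628 and 300 CPM. Again the groups overlapped, with means of 360 ± 101, 379 ± 76.6 and 432 ± 122 CPM (SD, n = 5 each). WT replicate 1 was lowest in both sums, and 13 of the 23 mitotic and 6 of the 16 S-phase genes had their lowest value there. This was also the library with the highest sum of hair markers. Lesional replicate 11 was highest in both sums and held the highest value of 13 mitotic and 9 S-phase genes, and it had the highest stress keratinocyte and leukocyte markers and the lowest muscle markers. Lesional replicate 5 had the second highest mitotic sum with 344 CPM of stress keratinocyte markers, within the range of the WT libraries. The S-phase sum divided by the mitotic sum was 0.671 ± 0.124 in WT, 0.565 ± 0.0713 in non-lesional and 0.559 ± 0.128 in lesional libraries (SD, n = 5 each). The values of the groups overlapped. Within the runs, this ratio was below that of WT in 5 of 5 for both non-lesional and lesional skin. The S-phase sum itself was above that of WT in 3 of 5 for non-lesional and in 4 of 5 for lesional skin.

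**Figure D2:**
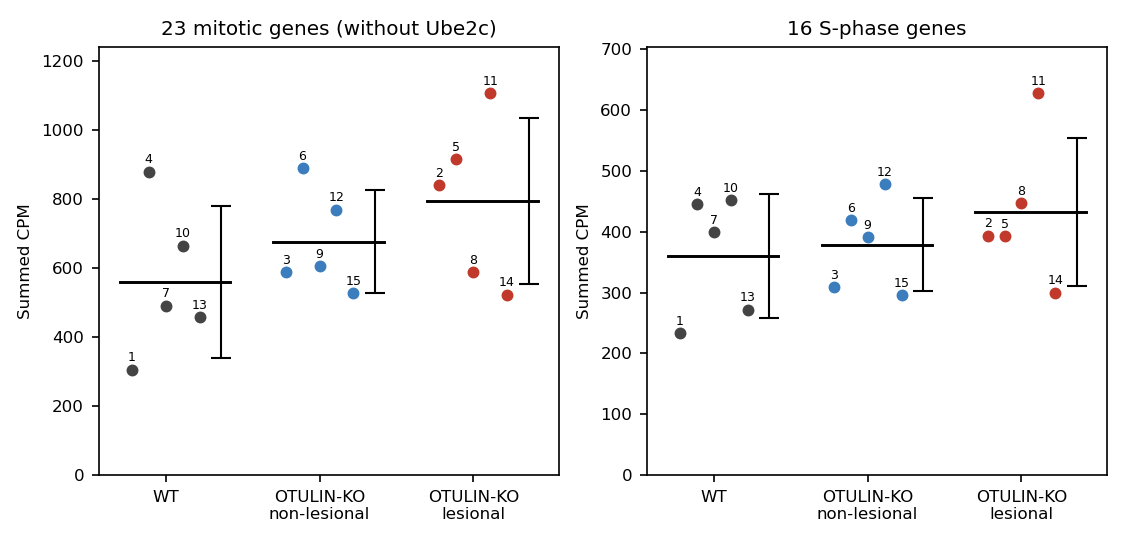
Summed CPM of the 23 mitotic genes without *Ube2c* (left) and of the 16 S-phase genes (right), 1 point per library labelled with its replicate number, with the mean as a line and the SD as a bar (n = 5 per group). The 3 groups overlap in both panels, with WT replicate 1 lowest and lesional replicate 11 highest.

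Set against the median of the WT libraries, all 23 mitotic genes lay above it in non-lesional replicate 6 and lesional replicate 5, 22 did in non-lesional replicate 12 and lesional replicates 2 and 11, and 10 did in lesional replicate 14. Among the WT libraries themselves, 20 did in replicate 4, 16 in replicate 10 and 2 in replicate 1. Of the 16 S-phase genes, 14 did in WT replicate 10, lesional replicate 11 and non-lesional replicate 12, 3 in non-lesional replicate 3 and 0 in WT replicate 1. The median SD of a member's log2 CPM was 0.58 in WT, 0.33 in non-lesional and 0.55 in lesional libraries for mitotic genes, and 0.60, 0.39 and 0.44 for S-phase genes.

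**Figure D3:**
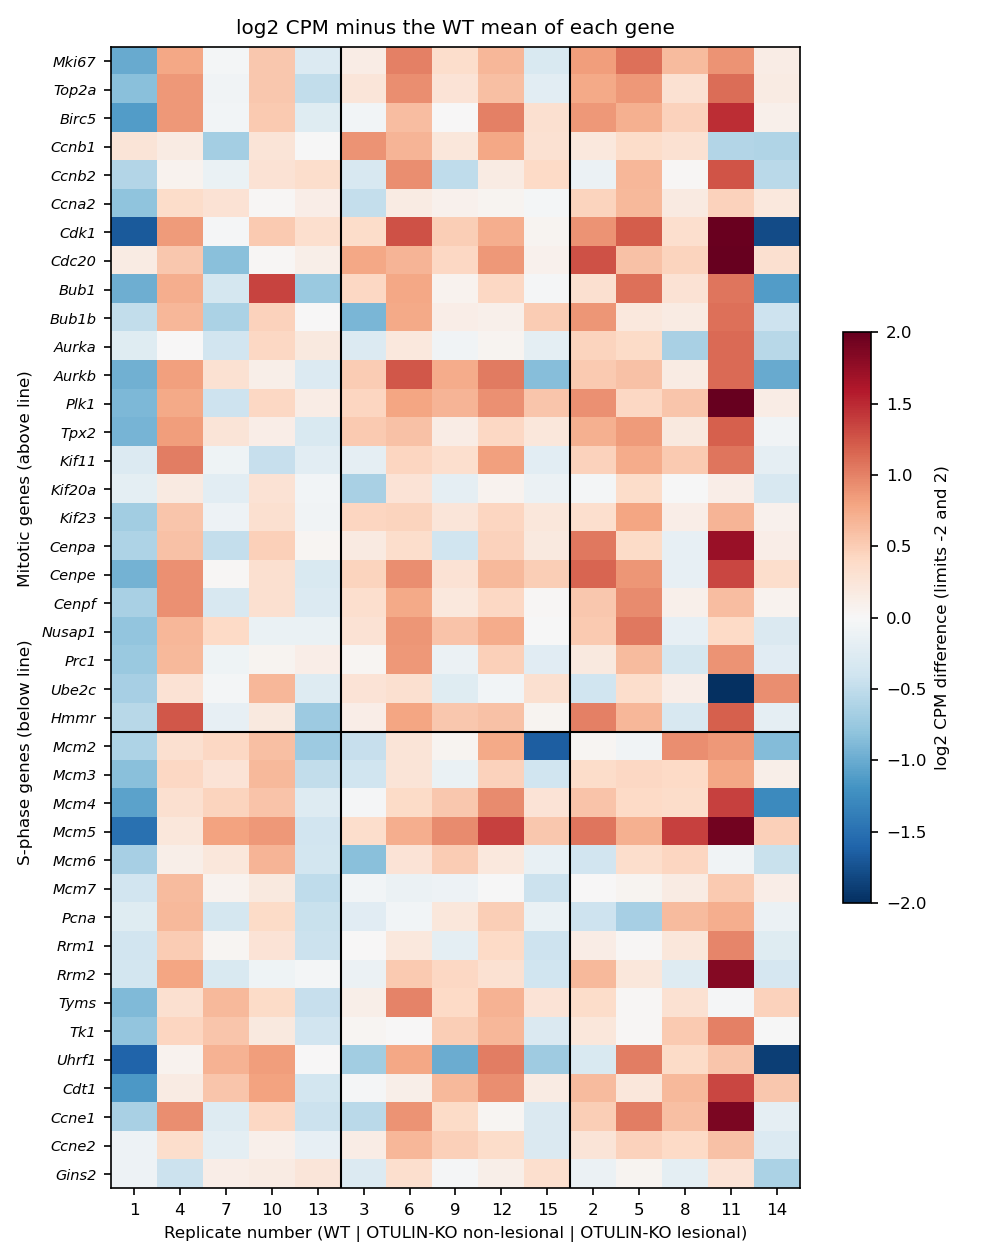
log2 CPM of each of the 40 members (rows) in each of the 15 libraries (columns) minus the member's WT mean, blue for lower and red for higher, with colours limited at -2 and 2. Most rows share a sign in some columns, such as WT replicate 1 (blue) and lesional replicate 11 (red), where *Ube2c* alone is dark blue.

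The first comparison, non-lesional OTULIN-KO against WT skin, asks whether proliferation genes differ where no lesion is seen. No member had an adjusted p under 0.05. Of the mitotic genes 21 of 24 had a log2 fold change above 0, with a median of 0.29, and of the S-phase genes 10 of 15 tested, with a median of 0.09. Over all 13021 genes tested the median was -0.0027. With edgeR's quasi-likelihood test and Benjamini-Hochberg adjustment over all genes tested, 0 of 39 members had an adjusted p under 0.05 (0% of all genes) and the smallest was 0.9998. Without adjustment 2 members, *Cdc20* and *Plk1*, had p under 0.05, that is 2 of 39 beside 3.16% of all genes. DESeq2 and limma also gave 0 members after adjustment and 2 each before, beside 2.8% and 3.37% of all genes. After adjustment 3 of 13021 genes passed with DESeq2 and 0 with limma. The groups had no overlap in 0.653% of all genes and in none of these members. Without WT replicate 4 the count at unadjusted p under 0.05 was 10 members beside 3.61% of all genes, and without non-lesional replicate 6 or 12 it was 0 beside 3.19% and 2.37%. Without WT replicate 1 the mitotic median was 0.12 and the S-phase median -0.0058, and without WT replicate 4 they were 0.56 and 0.24. Among S-phase members sharing no exon with a protein-coding gene the median was 0.033. With the block on runs of library numbers, edgeR gave 0 of 39 members with an adjusted p under 0.05, beside 8 of 13021 genes. Without adjustment it gave 10 members, beside 5.92% of all genes. These were *Mki67*, *Top2a*, *Birc5*, *Cdc20*, *Plk1*, *Cenpe*, *Cenpf*, *Nusap1*, *Mcm4* and *Mcm5*, all with values above 0, and the smallest adjusted p was 0.648.

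The second comparison sets lesional skin against the same WT libraries. By immunostaining, the study reported many more Ki-67-stained keratinocytes in the thickened epidermis of lesions. Stained cells in epidermal sections and mRNA of whole skin are unlike measures, so the values below do not test that result. Again no member passed after adjustment. Of 22 mitotic genes tested, 21 were above 0, the exception being *Ube2c*, with a median log2 fold change of 0.44, and of 15 S-phase genes 13 were above 0 with a median of 0.25. The median over all 12918 genes tested was -0.0034. By edgeR's quasi-likelihood test with Benjamini-Hochberg adjustment, 0 of 37 members had an adjusted p under 0.05 (0% of all genes; smallest 0.926). The unadjusted p was under 0.05 for 4 of 37 members, *Cdc20*, *Plk1*, *Mki67* and *Mcm5*, beside 4.81% of all genes. DESeq2 gave 0 members after adjustment and 4 before, beside 5.31% of all genes, and limma 0 and 3, beside 3.42%. After adjustment 1 of 12918 genes passed with DESeq2 and 0 with limma. The groups overlapped for every member tested, beside 0.697% of all genes that did not overlap. Lesional replicates 2 and 11, the lesional libraries with high stress keratinocyte markers, were also left out together, a choice made after seeing the data. This gave medians of 0.26 and 0.09 and 0 members at unadjusted p under 0.05, beside 2.94% of all genes. Without WT replicate 4 the count was 13 beside 4.04% of all genes, and without WT replicate 13 or lesional replicate 11 it was 1 beside 4.08% and 2.57%. With the block, edgeR gave 0 of 37 members after adjustment (smallest adjusted p 0.892) and 9 before, beside 4.59% of all genes. These were *Mki67*, *Top2a*, *Birc5*, *Cdc20*, *Plk1*, *Cenpa*, *Cenpf*, *Mcm5* and *Cdt1*, all with values above 0.

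The last comparison sets lesional against non-lesional OTULIN-KO skin. Mitotic genes had a median log2 fold change of 0.27, with 20 of 23 tested above 0 (20 of 22 without *Ube2c*), and S-phase genes of 0.19, with 12 of 15 above 0. Over all 12864 genes tested the median was 0.0031. By edgeR's quasi-likelihood test with Benjamini-Hochberg adjustment, 0 of 38 members had an adjusted p under 0.05 (0% of all genes; smallest 0.973). *Ccna2*, *Mcm3* and *Mcm7* had an unadjusted p under 0.05, 3 of 38 members beside 4.22% of all genes. DESeq2 gave 0 members after adjustment and 3 before, beside 4.78% of all genes, and limma 0 and 1, beside 3.11%. Without lesional replicate 11 alone the mitotic median was 0.073 and the S-phase median -0.011. *Ccna2* and *Mcm7* were the members whose lesional values all lay above all non-lesional values, beside 0.606% of all genes. Leaving out lesional replicates 2 and 11 turned the direction: the mitotic median was then -0.085, with 8 of 24 genes above 0, and the S-phase median -0.012. No member had an unadjusted p under 0.05 in that fit, beside 3.51% of all genes. With the block, edgeR gave 0 of 38 members after adjustment (smallest adjusted p 0.834) and 6 before, *Mki67*, *Top2a*, *Ccna2*, *Cenpa*, *Mcm3* and *Mcm7*, beside 5.19% of all genes.

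**Figure D4:**
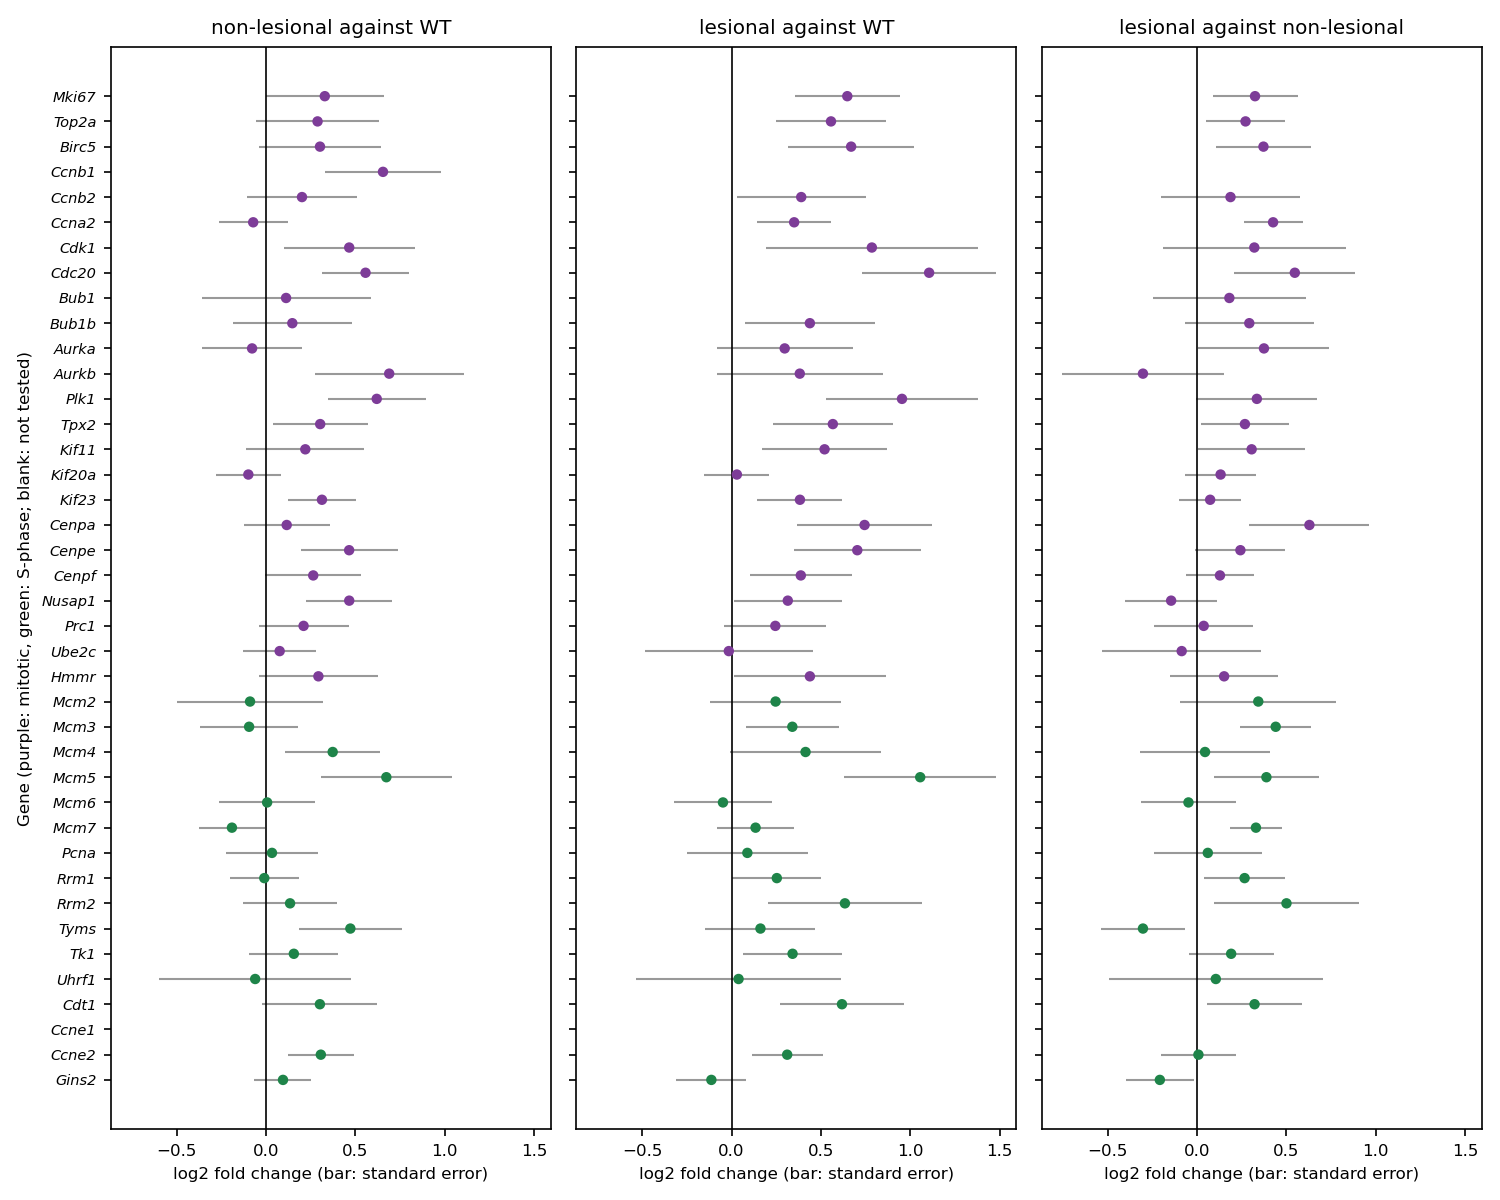
log2 fold change of each member (rows) in the 3 comparisons from edgeR, with the standard error as a bar, purple for mitotic and green for S-phase genes, and blank where a gene was not tested for low counts. Most points lie right of 0, with mitotic medians of 0.29, 0.44 and 0.27 and S-phase medians of 0.09, 0.25 and 0.19 from left to right, and the bars of many reach 0.

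Single libraries moved most of these values. With each replicate left out in turn, the log2 fold change of 35 of 39 members in non-lesional against WT, 31 of 37 in lesional against WT and 35 of 38 in lesional against non-lesional skin changed sign or moved by over 1.5 times in at least 1 fit, and 16, 7 and 16 of them changed sign. In non-lesional against WT the lowest value came without WT replicate 1 for 22 members and the highest without WT replicate 4 for 21. In lesional against WT the lowest came without lesional replicate 11 for 21 members, and in lesional against non-lesional for 25. The rule of 1.5 times is a ratio, so a value near 0 meets it with a small move, as does -0.010 for *Rrm1* in non-lesional against WT. The share of all genes that meet the rule was not counted, so these counts do not set the members apart from other genes.

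Among the genes of chromosome structure, *Mki67* encodes the Ki-67 antigen (ENSMUSG00000031004, chr7:135689784-135716361, minus strand). It had 15.9, 56.4, 31.9, 48.1 and 27.1 CPM in WT replicates 1, 4, 7, 10 and 13. It had 36.5, 66.4, 42.1, 52.5 and 26.3 CPM in the non-lesional and 59.3, 71.4, 51.2, 61.7 and 36.5 CPM in the lesional replicates. In 3 of 5 lesional libraries the value exceeded every WT library, but WT replicates 4 and 10 lay inside the lesional range. The log2 fold change of *Mki67* in lesional against WT skin was 0.65 (standard error, SE, 0.29, 95% confidence interval 0.014 to 1.28), with an adjusted p of 0.926 from edgeR and p = 0.0635 from the two-sided exact permutation test. In non-lesional against WT skin it was 0.33 (SE 0.33), or 0.14 without WT replicate 1 and 0.55 without WT replicate 4. Without lesional replicates 2 and 11 the lesional value was 0.56. With the block the *Mki67* values were 0.35 (SE 0.15) in non-lesional and 0.72 (SE 0.23) in lesional against WT skin. The lesional library was above both the WT and the non-lesional one in 5 of 5 runs, and the non-lesional above the WT one in 4 of 5. How many of all genes do the same was not counted.

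*Top2a* (ENSMUSG00000020914, chr11:98992943-99024189) had 66.1, 216, 113.5, 171.9 and 83.8 CPM in the WT replicates. It had 140.7, 225.9, 143.9, 179.5 and 102.9 CPM in the non-lesional and 200.5, 217.8, 147.3, 257.2 and 132.8 CPM in the lesional replicates. As for *Mki67*, replicates 1 and 4 were the lowest and highest WT libraries and replicates 15 and 6 the lowest and highest non-lesional ones, and all groups overlapped. Its log2 fold change was 0.29 (SE 0.34) in non-lesional and 0.56 (SE 0.31) in lesional against WT skin. The non-lesional value was 0.12 without WT replicate 1 and 0.55 without WT replicate 4. *Birc5*, which encodes survivin of the chromosomal passenger complex, had 13.9, 57.7, 30.1, 45.2 and 26.3 CPM in the WT replicates. It had 29.8, 48.1, 31.3, 63.7 and 38.9 CPM in the non-lesional and 57.5, 51.4, 43.2, 88.6 and 33.6 CPM in the lesional replicates. The groups overlapped, with lesional replicate 11 and WT replicate 1 at the ends. In lesional against WT skin, the 4 genes of this class had log2 fold changes from 0.38 for *Aurkb*, the kinase of that complex, to 0.67 for *Birc5*. Without lesional replicate 11 *Birc5* was at 0.43 and *Aurkb* at 0.10, and without lesional replicates 2 and 11 they were at 0.30 and -0.067. In non-lesional against WT skin *Aurkb* was at 0.69 (SE 0.42), the highest value of the members tested there in the unblocked fit of all libraries. Without WT replicate 1 it was at 0.47.

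*Cdc20*, the activator that turns the anaphase-promoting complex on at the end of metaphase, had the largest log2 fold change of the members in lesional against WT skin with all libraries. Without lesional replicate 11 it lay below *Mcm5* (0.68 against 0.80). The levels of *Cdc20* were 11.6, 15.3, 5.38, 10.6 and 11.3 CPM in the WT replicates. They were 18.3, 17.0, 14.02, 19.6 and 10.9 CPM in the non-lesional and 26.2, 15.9, 14.4, 47.3 and 13.1 CPM in the lesional replicates. In both kinds of OTULIN-KO skin 3 of 5 libraries lay above every WT library. The log2 fold change of *Cdc20* was 0.56 (SE 0.25, adjusted p = 0.9998 from edgeR) in non-lesional and 1.11 (SE 0.38, 95% confidence interval 0.30 to 1.92, adjusted p = 0.926 from edgeR) in lesional against WT skin. Without lesional replicate 11 the lesional value of *Cdc20* was 0.68, and without lesional replicates 2 and 11 it was 0.41. The exact permutation test gave p = 0.0635 and 0.0238 for these comparisons, two-sided. *Cdc20* shares exon bases with *Elovl1*, and its counts were 0.023 to 0.203 of those of *Elovl1*.

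*Plk1*, a kinase of mitotic entry and spindle assembly, had 4.25, 15.3, 6.28, 11.8 and 9.78 CPM in the WT replicates. It had 12.02, 15.7, 14.4, 17.2 and 13.1 CPM in the non-lesional and 17.2, 11.8, 13.2, 39.8 and 9.73 CPM in the lesional replicates. The 5 non-lesional libraries were close together, 2 of them above every WT library, while lesional replicate 11 stood alone. The log2 fold change of *Plk1* was 0.62 (SE 0.27) in non-lesional and 0.95 (SE 0.42) in lesional against WT skin, with adjusted p of 0.9998 and 0.926 from edgeR. Without lesional replicate 11 the lesional value of *Plk1* was 0.46, and without lesional replicates 2 and 11 it was 0.29. In non-lesional against WT skin *Aurka* was at -0.078 (SE 0.28), *Bub1* of the spindle checkpoint at 0.11 (SE 0.47) and *Bub1b* at 0.15 (SE 0.33). With single replicates left out these ranged from -0.17 to 0.050 for *Aurka*, -0.13 to 0.70 for *Bub1* and -0.043 to 0.35 for *Bub1b*.

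**Figure D5:**
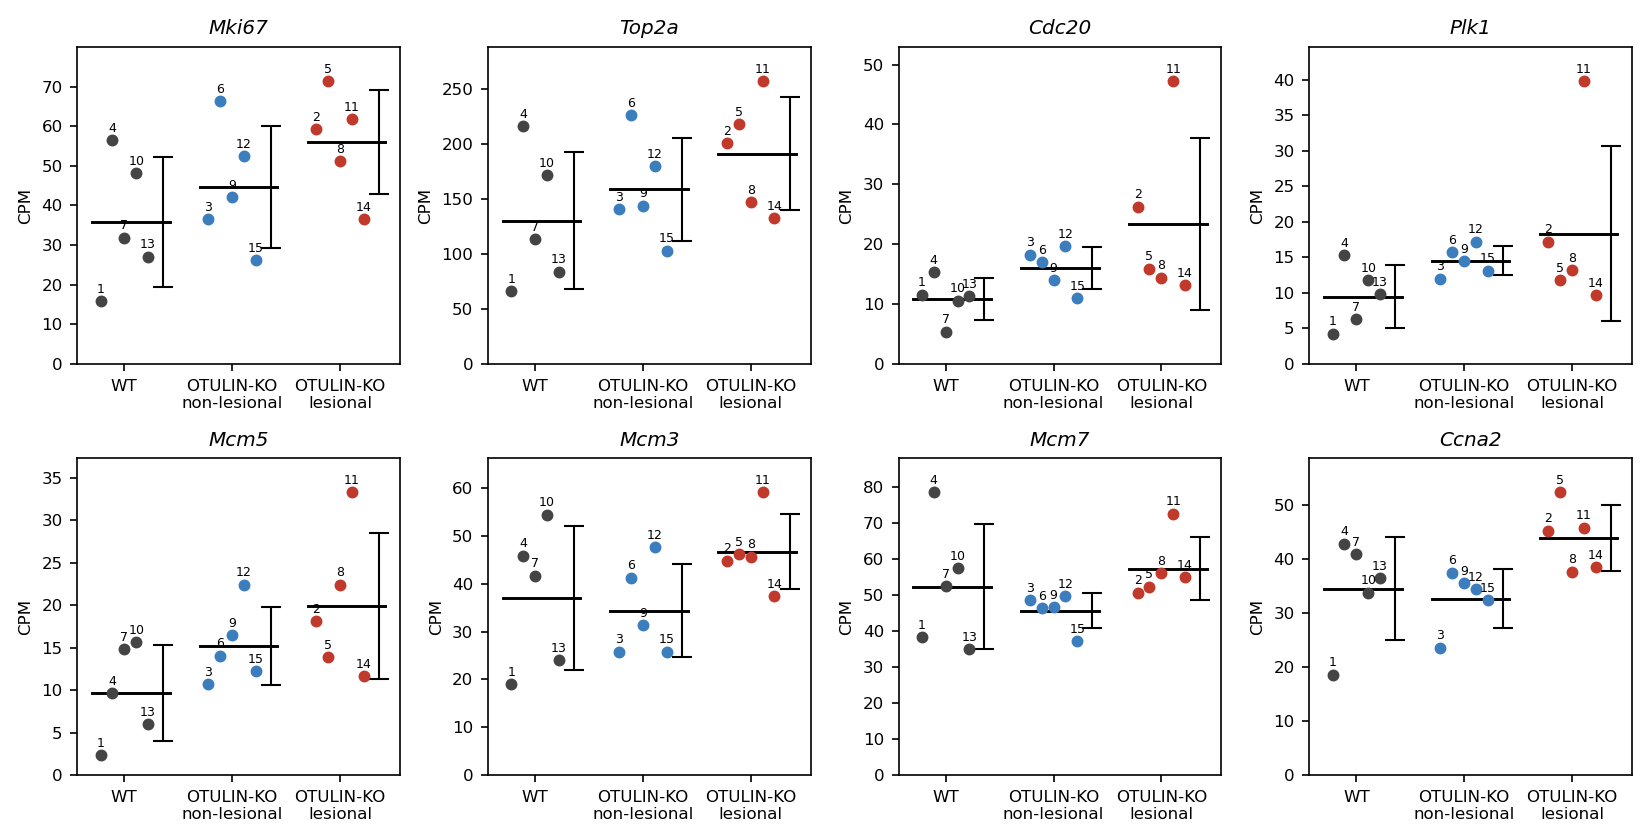
CPM of 8 members by group, 1 point per library labelled with its replicate number, with the mean as a line and the SD as a bar (n = 5 per group), axes from 0. The groups overlap except for *Mcm7* and *Ccna2* between lesional and non-lesional libraries, and lesional replicate 11 is highest for *Cdc20* (47.3 CPM) and *Plk1* (39.8 CPM).

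The cyclins and their kinase had differing values. *Ccna2*, cyclin A2 of S and G2 phase, had 18.6, 42.9, 40.8, 33.8 and 36.5 CPM in the WT replicates. It had 23.6, 37.4, 35.5, 34.4 and 32.4 CPM in the non-lesional and 45.2, 52.4, 37.6, 45.8 and 38.4 CPM in the lesional replicates. The lesional values all lay above the non-lesional ones, the nearest pair being 37.6 and 37.4 CPM, while they overlapped with WT. The log2 fold change of *Ccna2* was 0.43 (SE 0.16, adjusted p = 0.973 from edgeR) between lesional and non-lesional libraries, and the separation of the groups fixes the two-sided exact permutation p at 0.0079, the smallest that 5 against 5 libraries can give. Leaving out each replicate in turn, it stayed between 0.34 and 0.48, and it was -0.072 (SE 0.19) in non-lesional against WT skin, where it ranged from -0.23 to 0.020. *Cdk1*, the kinase that drives mitosis, ranged from 2.71 to 19.7 CPM in WT, 10.9 to 26.8 CPM in non-lesional and 2.43 to 44.3 CPM in lesional libraries, and its log2 fold change in lesional against WT skin was 0.79 (SE 0.59), or 0.33 without lesional replicate 11. *Ccnb1* was tested in non-lesional against WT skin, where its log2 fold change was 0.65 (SE 0.33, adjusted p = 0.9998 from edgeR), with 4 of 5 non-lesional libraries above all WT libraries. The non-lesional values of *Ccnb1* were 7.12, 5.96, 4.12, 6.41 and 4.38 CPM, against 4.25, 3.94, 1.79, 4.22 and 3.38 CPM in WT. In the lesional replicates it lay at 4.07, 4.62, 4.40, 1.99 and 1.95 CPM, and it did not pass the filter in comparisons with them.

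The 7 spindle genes, among them the motors *Kif11*, *Kif20a* and *Kif23*, had a median log2 fold change of 0.29 in non-lesional and 0.38 in lesional against WT skin. None had an unadjusted p under 0.05 in the unblocked fit, beside 3.16% and 4.81% of all genes, and 0 of 7 is near those shares. In lesional against WT skin they ran from 0.030 for *Kif20a* (SE 0.18), whose reads are shared with *Cdc23*, to 0.57 for *Tpx2* (SE 0.34), the activator of Aurora A on the spindle. The centromere genes had log2 fold changes in lesional against WT skin of 0.74 (SE 0.38) for *Cenpa*, the histone H3 variant of the centromere, 0.70 (SE 0.35) for *Cenpe* and 0.39 (SE 0.28) for *Cenpf*. *Cenpa* had 36.7, 22.6, 15.2, 58.7 and 19.0 CPM in the lesional replicates, against 10.8 to 26.2 CPM in WT and 12.8 to 24.0 CPM in non-lesional libraries. *Cenpf*, a large protein of the outer kinetochore, had 35.2, 105.8, 44.4, 69.7 and 45.9 CPM in the WT replicates. It had 70.4, 94.8, 64.3, 74.1 and 56.5 CPM in the non-lesional and 81.5, 108.4, 59.6, 85.6 and 58.4 CPM in the lesional replicates, so that WT spanned nearly the whole range. For *Cenpa*, lesional replicates 2 and 11 were the libraries above WT, and without them its log2 fold change against WT was 0.045.

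The MCM genes, whose 6 products form 1 helicase ring, differed from each other. In lesional against WT skin *Mcm5* had the largest log2 fold change, 1.06 (SE 0.42, 95% confidence interval 0.14 to 1.97, adjusted p = 0.926 from edgeR), and *Mcm6* the smallest, -0.048 (SE 0.27). *Mcm5* had 2.32, 9.62, 14.8, 15.6 and 6.02 CPM in the WT replicates. It had 10.7, 14.04, 16.5, 22.4 and 12.2 CPM in the non-lesional and 18.1, 13.9, 22.4, 33.3 and 11.7 CPM in the lesional replicates. WT replicates 1 and 13 were the lowest, and 3 of 5 lesional libraries lay above every WT library (two-sided exact permutation test, p = 0.0556). Without lesional replicate 11 the value of *Mcm5* was 0.80, and between non-lesional and WT libraries it was 0.67 (SE 0.37), or 0.42 without WT replicate 1.

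*Mcm7* and *Mcm3* were the most abundant MCM genes. *Mcm7* had 38.3, 78.7, 52.5, 57.4 and 34.97 CPM in the WT replicates. It had 48.5, 46.4, 46.6, 49.7 and 37.2 CPM in the non-lesional and 50.7, 52.4, 56.0, 72.6 and 55.0 CPM in the lesional replicates. WT libraries spanned both groups, while all 5 lesional values lay above all 5 non-lesional ones. The log2 fold change of *Mcm7* was 0.33 (SE 0.15, adjusted p = 0.973 from edgeR) in lesional against non-lesional skin and 0.13 (SE 0.21) in lesional against WT skin. The latter was 0.036 without lesional replicate 11, 0.017 without WT replicate 13 and 0.33 without WT replicate 4. *Mcm3* had 18.9, 45.9, 41.7, 54.5 and 24.1 CPM in the WT replicates. It had 25.8, 41.3, 31.3, 47.7 and 25.8 CPM in the non-lesional and 44.8, 46.2, 45.6, 59.2 and 37.4 CPM in the lesional replicates. Lesional replicate 11 lay above every WT library, and non-lesional replicates 6 and 12 lay inside the lesional range. Its log2 change in lesional against non-lesional skin was 0.44 (SE 0.20, adjusted p = 0.973 from edgeR), and 0.32 without lesional replicates 2 and 11. *Mcm2*, *Mcm4* and *Mcm6* did not reach an unadjusted p under 0.05 in any comparison of the unblocked fit, beside 3.16%, 4.81% and 4.22% of all genes.

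None of the genes of nucleotide supply, licensing and cyclin E that were tested had an unadjusted p under 0.05 in any comparison of the unblocked fit. This stands beside 3.16%, 4.81% and 4.22% of all genes in the 3 comparisons, and for so few genes it is near those shares. *Rrm1* had 36.7, 69.1, 49.4, 58.3 and 35.7 CPM in the WT replicates. It had 48.5, 56.2, 42.1, 63.7 and 35.9 CPM in the non-lesional and 53.4, 48.8, 56.9, 96.0 and 40.9 CPM in the lesional replicates. Lesional replicate 11 was the 1 value above the WT range, and the log2 fold change of *Rrm1* was -0.010 (SE 0.19) in non-lesional and 0.25 (SE 0.25) in lesional against WT skin. Without that library the lesional value of *Rrm1* was 0.010. *Rrm2*, the subunit made in S phase, had 42.3 CPM in lesional replicate 11 and 8.75 to 18.1 CPM in the other lesional libraries, with a log2 fold change against WT of 0.63 (SE 0.43), or 0.069 without that library. *Tyms*, thymidylate synthase, had 4.25 to 13.9 CPM in WT, 9.35 to 17.9 CPM in non-lesional and 8.46 to 12.2 CPM in lesional libraries. Its log2 fold change against WT was 0.47 (SE 0.29) in non-lesional and 0.16 (SE 0.31) in lesional skin, and without WT replicate 1 these were 0.29 and -0.019. *Tk1*, thymidine kinase, had 15.1 to 39.9 CPM in WT, 21.9 to 42.9 CPM in non-lesional and 26.8 to 54.7 CPM in lesional libraries. Its value in lesional against WT skin was 0.34 (SE 0.28) on the log2 scale, and 0.14 without lesional replicate 11.

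*Cdt1*, which loads the helicase before S phase, had 4.25, 11.8, 15.7, 19.0 and 7.89 CPM in the WT replicates. It had 10.2, 11.5, 16.9, 20.8 and 11.8 CPM in the non-lesional and 16.7, 12.3, 16.8, 27.9 and 15.6 CPM in the lesional replicates. Lesional replicate 11 was above all WT libraries and the other 4 were within their range, and the log2 fold change of *Cdt1* was 0.62 (SE 0.35) in lesional against WT skin and 0.41 without that library. *Ccne2*, cyclin E2, had 20.6 to 30.6 CPM in WT, 19.3 to 37.9 CPM in non-lesional and 19.4 to 35.8 CPM in lesional libraries, with log2 fold changes against WT of 0.31 (SE 0.18) and 0.31 (SE 0.20). *Ccne1* was too low for the test, with 1.16 to 5.25 CPM in WT, 1.34 to 5.10 CPM in non-lesional and 1.95 to 10.9 CPM in lesional libraries. In lesional against WT skin, the log2 fold change was 0.089 (SE 0.34) for *Pcna*, the sliding clamp of the polymerases, 0.039 (SE 0.57) for *Uhrf1*, which maintains DNA methylation at the fork, and -0.11 (SE 0.20) for *Gins2*. *Gins2* had 27.6 to 44.4 CPM in WT, 30.7 to 47.3 CPM in non-lesional and 23.8 to 45.3 CPM in lesional libraries.

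Other genes of the cell cycle, from lists written with earlier results of these data known, were fitted in the same way. Of 42 other mitotic genes, 35 were tested in each comparison, and their median log2 fold changes were 0.18, 0.40 and 0.20 in non-lesional against WT, lesional against WT, and lesional against non-lesional skin. With edgeR 0 of them passed after adjustment, and 1, 3 and 1 had an unadjusted p under 0.05, all higher, which is 2.86%, 8.57% and 2.86% of those tested beside 3.16%, 4.81% and 4.22% of all genes. They were *Kif22* in the first comparison, *Sgo2a*, *Kif14* and *Kif22* in the second, and *Sgo2a*, a guardian of centromere cohesion, in the last. Without lesional replicate 11 *Kif22* kept an unadjusted p under 0.05 in the second comparison and *Sgo2a* and *Kif14* did not, and without lesional replicates 2 and 11 none of them did in the second or last. The second-comparison value of *Kif14* was then 0.39, against 0.94 with all libraries. That of *Sgo2a* was 0.895 with all libraries, 0.725 without lesional replicate 11 and 0.614 without lesional replicates 2 and 11. The genes with the next smallest p were *Ncaph*, a condensin subunit, and *Kif18a* in the first comparison, and *Incenp* and *Spc25* in the last. *Sgo2a* had 8.52 ± 4.14 CPM in WT, 8.52 ± 2.08 CPM in non-lesional and 15.8 ± 5.5 CPM in lesional libraries (SD, n = 5 each). It shares 2455 exon bases with *Kctd18* on the opposite strand, which had 719 counts over all libraries against its 368, so that reads of both may enter its counts. Of 36 other replication genes, 31, 31 and 30 were tested, with medians of 0.059, 0.15 and 0.048, and 2, 1 and 1 had an unadjusted p under 0.05, which is 6.45%, 3.23% and 3.33% of those tested. These were *Pola2* and *Rfc3*, a clamp loader subunit, in the first and *Mcm10*, a fork protein, in both comparisons with lesional libraries. *Fen1* in the first comparison, *Rpa2* and *Pola1* in the second, and *Lig1* and *Rpa2* in the last followed. Without lesional replicate 11 *Mcm10* kept an unadjusted p under 0.05 in neither comparison. Its values were 0.85 against WT and 0.90 against non-lesional skin, and 0.44 and 0.50 without lesional replicates 2 and 11. *Pola2*, a subunit of the primase complex, had 11.2 ± 2.6 CPM in WT and 17.6 ± 2.3 CPM in non-lesional libraries (SD, n = 5 each), with all 5 non-lesional above all 5 WT values, beside 0.653% of all genes without overlap, and a log2 fold change of 0.66 (SE 0.20, adjusted p = 0.9998 from edgeR). Of 21 regulators of G1 phase, 20 were tested, the medians were 0.037, -0.031 and -0.057, and none had an unadjusted p under 0.05. The smallest p among them were those of *E2f4*, *E2f6* and *Cdkn2d* in the first comparison, of *Cdk6*, *Cdkn1a* and *Cdkn1c* in the second, and of *Cdk6*, *Cdkn1a* and *E2f6* in the last. Among these, *Cdk6* had a log2 fold change of 0.39 (SE 0.19) in lesional against WT skin and 0.040 without lesional replicates 2 and 11. *Cdkn1a*, the inhibitor p21, had 405 ± 86, 416 ± 46 and 473 ± 72 CPM (SD, n = 5 each) in WT, non-lesional and lesional libraries.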

How the data were processed

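RNA was measured in 15 skin libraries, 5 per group. The authors clipped adaptors with cutadapt 2.10, mapped reads with subread-align to GRCm38, kept high-quality unique matches with SAMtools 1.7-2, and counted exon overlaps with featureCounts 2.0.1, assigning a read to every gene it overlapped (versions per the labels, from the submitters' processing notes). The annotation release and strand setting are not given in the sources used here. The deposited counts are not normalized, and 92 spike-in rows with 0 counts were left out. The authors' deposited CPM were not used. The age of the mice and the littermate status of WT come from the published description and not from the labels. PCR copies are not marked, so counts are not independent molecules.

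Each pair of groups was fitted with edgeR 4.0.16 (R 4.3.3), with TMM, filterByExpr and the robust quasi-likelihood F-test, with Benjamini-Hochberg adjustment over all genes tested and a threshold of 0.05. The comparisons with WT share the WT libraries. Standard errors were obtained as |log2 fold change| / √F. *Ccne1* failed the filter in every comparison, *Ccnb1* in those with lesional libraries and *Bub1* in lesional against WT. Exact permutation tests used log2 CPM with a prior count of 2 over 252 regroupings and were not adjusted. In simulated counts for non-lesional against WT (12797 genes), 74 of 95 genes with a log2 change of 1 and 99 of 100 with one of 2 were called, and 7 of 12602 unchanged ones. The changes were planted in genes of all levels, and the largest member value in that comparison was 0.69. Smaller changes and the comparisons with lesional libraries were not simulated, so this gives no power for the members.

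The members and lists were chosen with earlier results of these data known. Genes were named by rule: the 5 highest in mean CPM per subgroup, the 3 with the smallest p per comparison and subgroup (and per other list), and *Mki67*. Most members named are given in every sample, the others by range. The grouping by role was made after the values were seen. Alternatives were DESeq2 1.42.0, limma 3.58.1 voomWithQualityWeights, DESeq2 size factors, upper quartile normalization, no filter, a fit of all 15 samples, a minimum of 10 counts in every sample, no robust estimation, and each replicate left out. Added after seeing the data were leaving out *Ube2c*, leaving out members that share exons, leaving out lesional replicates 2 and 11, and a block of each run of 3 consecutive library numbers. Over genes, the deviations of such libraries from their group means correlated at 0.123 to 0.273 between WT and non-lesional, 0.109 to 0.347 between lesional and non-lesional and -0.0915 to 0.255 between WT and lesional libraries. The highest correlations with a library of another run were 0.0835, 0.109 and 0.184 in the same order. Lesional replicates 11 and 14 correlated more with a WT library of another run (0.161 and 0.159) than with their own (-0.0915 and 0.0363). The pairing is a hint from the data, does not hold for every WT and lesional library, and is not stated in the labels. Exon overlaps come from GENCODE M21 and promoters from RefSeq.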

Additional observations from a re-analysis of the deposited data

Results flagged for a closer look

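All 40 members and the 2 summed levels were looked at in each of the 3 groups of 5 libraries, 126 groups in all. In 7 of them 1 value lay far from the other 4, by a gap of more than 0.71 of the group's range. Chance alone flags about 1 in 20 groups. In lesional replicate 11, *Plk1* was at 39.8 CPM with the others at 9.73 to 17.2 CPM, *Cdt1* at 27.9 CPM with the others at 12.3 to 16.8 CPM, *Rrm2* at 42.3 CPM with the others at 8.75 to 18.1 CPM, and *Mcm7* at 72.6 CPM with the others at 50.7 to 56.0 CPM. In WT replicate 4, *Kif11* was at 14.4 CPM with the others at 4.64 to 6.28 CPM, and *Rrm2* at 20.1 CPM with the others at 8.51 to 10.9 CPM. In non-lesional replicate 15, *Mcm7* was at 37.2 CPM with the others at 46.4 to 49.7 CPM.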

How the results depend on the processing

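No member passed an adjusted p of 0.05 in any comparison under the alternatives run. Of all genes in non-lesional against WT, 18 of 27255 passed with no filter, 8 of 13021 with the block and 3 of 13021 with DESeq2. In that comparison 5 of 13217 passed without non-lesional replicate 6. In lesional against WT 1 of 12918 passed with DESeq2. The count of members at unadjusted p under 0.05 depended on the processing, and the share of all genes at that p, given here in brackets, moved too. In non-lesional against WT it was 2 (3.16%), and 7 with no filter (4.53%), 0 with all 15 samples in 1 fit (1.98%) and 1 among members sharing no exon. In lesional against WT it was 4 (4.81%), and 0 without lesional 2 and 11 (2.94%). In lesional against non-lesional it was 3 (4.22%), and 1 with upper quartile normalization (3.96%), with limma (3.11%), with all 15 samples in 1 fit (5.54%) or among members sharing no exon, and 0 without lesional 2 and 11 (3.51%). With single replicates left out the counts were 0 to 10, 1 to 13 and 1 to 4. In the first comparison it was 10 without WT 4 (3.61%), 5 without non-lesional 15 (3.42%), 1 without WT 1 (2.7%) or non-lesional 3 (3.73%) and 0 without non-lesional 6 (3.19%) or 12 (2.37%). In the second it was 13 without WT 4 (4.04%), 8 without lesional 14 (7.6%), 2 without WT 1 (3.74%), WT 7 (4.03%) or lesional 2 (3.39%), and 1 without WT 13 (4.08%) or lesional 11 (2.57%). In the last it was 1 without non-lesional 3 (3.97%), non-lesional 15 (2.75%) or lesional 11 (2.38%).

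Single replicates left out gave mitotic medians of 0.12 to 0.56, 0.30 to 0.75 and 0.073 to 0.39, and S-phase medians of -0.0058 to 0.24, 0.070 to 0.41 and -0.011 to 0.36, in the order of the comparisons above. The lowest mitotic medians were without WT replicate 1, WT replicate 1 and lesional replicate 11. With limma the mitotic median in lesional against non-lesional skin was 0.0493. Without lesional 2 and 11 it was -0.085, and the S-phase median -0.012. The causes were not tested. Low counts limit *Ccnb1*, *Ccne1* and *Bub1*. The groups share no replicate number. With the replicate block of consecutive library numbers, added after seeing the data, the counts at unadjusted p under 0.05 were 10 (5.92%), 9 (4.59%) and 6 (5.19%), and the mitotic medians 0.34, 0.48 and 0.18, with S-phase medians of 0.094, 0.24 and 0.18.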
